A study of Mus musculus with 2 samples.

Results

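The hydroxysteroid dehydrogenases of liver measured here were 9 genes: the 3-beta enzymes Hsd3b2, Hsd3b3 and Hsd3b5, the 11-beta enzyme Hsd11b1, and the 17-beta family genes Hsd17b2, Hsd17b6, Hsd17b10, Hsd17b11 and Hsd17b12. They were chosen by name, as all probe sets annotated with exactly 1 gene symbol where that symbol was in the list. The rule found 15 probe sets for all 9 genes, of 45101 probe sets and 18194 singly named genes on the array. The diosgenin group was ICR mice, an outbred stock, given the basal diet CRF-1 with 500 ppm diosgenin, a steroidal sapogenin of yams, for 4 weeks, and the control group received CRF-1 alone over the same weeks. Mice of both groups were 13 weeks old at collection, and the labels used here do not state their sex. Liver RNA of 3 mice per diet was pooled on 1 Affymetrix array, so the data were 1 diosgenin array and 1 control array. With 1 array per diet there was no replicate spread and no test. Every difference below compares 2 pools, and higher or lower refers to the diosgenin array, set against the control. Cages held 3 mice, so the cage and the diet may coincide and cannot be told apart. The number of arrays limits the precision.

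Hydroxysteroid dehydrogenases move hydrogen between steroid hydroxyl and keto groups and so set whether a hormone is active. In liver, 3-beta enzymes act on pregnane and androstane steroids, the 11-beta enzyme regenerates active glucocorticoid, and oxidative 17-beta enzymes inactivate estradiol and testosterone. Several genes carry the family name although their main known substrates are fatty acyl compounds or other lipids.

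The 3-beta genes form a tandem cluster on mouse chromosome 3, where Hsd3b2 and Hsd3b3 are direct neighbours, 2 pseudogenes lie between Hsd3b5 and Hsd3b2, and Hsd3b6 follows Hsd3b3 directly. RefSeq promoter windows on the mouse build GRCm38.p6 were matched for 8 of the 9 genes. The 250 bases before the annotated start are shown for the 3 cluster genes, to show how far these copies resemble each other upstream, and for Hsd17b11, the gene with the highest ratio. Capitals in Hsd3b5 and Hsd3b3 mark the longest run shared by both windows, and capitals in Hsd17b11 mark the letters CCAAT.
Hsd3b5, chr3:98645535-98645784, minus strand: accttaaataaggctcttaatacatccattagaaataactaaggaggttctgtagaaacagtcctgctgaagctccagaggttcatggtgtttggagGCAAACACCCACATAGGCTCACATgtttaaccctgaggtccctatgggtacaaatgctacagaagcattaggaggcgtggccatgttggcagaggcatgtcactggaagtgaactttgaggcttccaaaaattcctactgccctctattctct
Hsd3b3, chr3:98763129-98763378, minus strand: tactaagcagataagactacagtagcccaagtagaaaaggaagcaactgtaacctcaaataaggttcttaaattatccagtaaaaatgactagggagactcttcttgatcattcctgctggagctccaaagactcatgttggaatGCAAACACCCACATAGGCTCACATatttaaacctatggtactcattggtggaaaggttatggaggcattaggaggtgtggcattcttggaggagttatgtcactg
Hsd3b2, chr3:98724544-98724793, minus strand: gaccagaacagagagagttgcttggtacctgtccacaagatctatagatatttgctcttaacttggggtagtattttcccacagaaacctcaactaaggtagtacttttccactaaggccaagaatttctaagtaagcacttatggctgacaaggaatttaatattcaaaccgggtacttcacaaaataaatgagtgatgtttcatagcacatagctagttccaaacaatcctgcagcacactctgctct
Hsd17b11, chr5:104021797-104022046, minus strand: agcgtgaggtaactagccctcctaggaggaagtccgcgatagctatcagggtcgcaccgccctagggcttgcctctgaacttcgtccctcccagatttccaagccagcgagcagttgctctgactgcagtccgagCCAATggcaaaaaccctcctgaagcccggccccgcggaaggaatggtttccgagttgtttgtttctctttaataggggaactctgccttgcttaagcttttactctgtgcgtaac
Hsd3b3 had 2 windows, and only the first listed was shown and aligned. The windows of Hsd3b5 and Hsd3b3 shared a run of 24 bases and were identical at 151 of 301 alignment positions, or 50.2%. Positions facing a gap count as not identical in all these percentages, which therefore understate how alike the paired bases were. The shared run stands at a different place in each window, so gaps weigh on this pair. Those of Hsd3b5 and Hsd3b2 were identical at 48.6% of 286 positions, gaps included, with a longest shared run of 8 bases. The neighbouring genes Hsd17b11 and Hsd17b13, shown only by this value, were identical at 42.3% of positions, also with a longest shared run of 8 bases. Windows of unrelated genes were not aligned, so these percentages have no background to be read against. Searched on both strands, the letters CCAAT occurred in 8 of 10 windows of these genes, which belong to 6 genes, against 33.8% of all 32851 windows. The nuclear receptor core AGGTCA, held by 14.0% of all windows, and the box TATAAA, held by 12.4%, were in 0 of the 10 windows. These letter matches describe the windows only.

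The enzymes differed little between the arrays. By the probe set with the highest mean signal for each gene, 7 of the 9 genes were lower and 2 higher on the diosgenin array, against 51.0% lower among all 9732 genes that passed the filter on low signals, a mean of at least 28.4. All 9 genes passed it. Their log2 ratios reached from -0.37 for Hsd17b2 to 0.26 for Hsd17b11, with a median of -0.11, against a median of -0.0053 over all genes. At least 1.5-fold apart were 0 of the 9 genes, where 6.44% of all genes were, and at least 2-fold apart were also 0, against 1.41%. Over 4079 genes with several probe sets, the log2 ratios within a gene varied by a standard deviation of 0.28, and 8 of the 9 ratios were smaller in size than this spread. That spread is between probe sets on the same arrays and holds no difference between mice. It pools dim and bright genes above the filter and was not computed for bright genes alone.

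Since these genes are all bright, genes with a mean signal of at least 1147, that of Hsd3b2, give a closer background. Of these 863 genes, 51.8% were lower, 1.97% were at least 1.5-fold apart, and the central 95% of log2 ratios reached from -0.38 to 0.35. All 9 dehydrogenases lay inside this range. In bulk tissue, fewer cells of a type and less RNA per cell cannot be told apart.

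**Figure D1:**
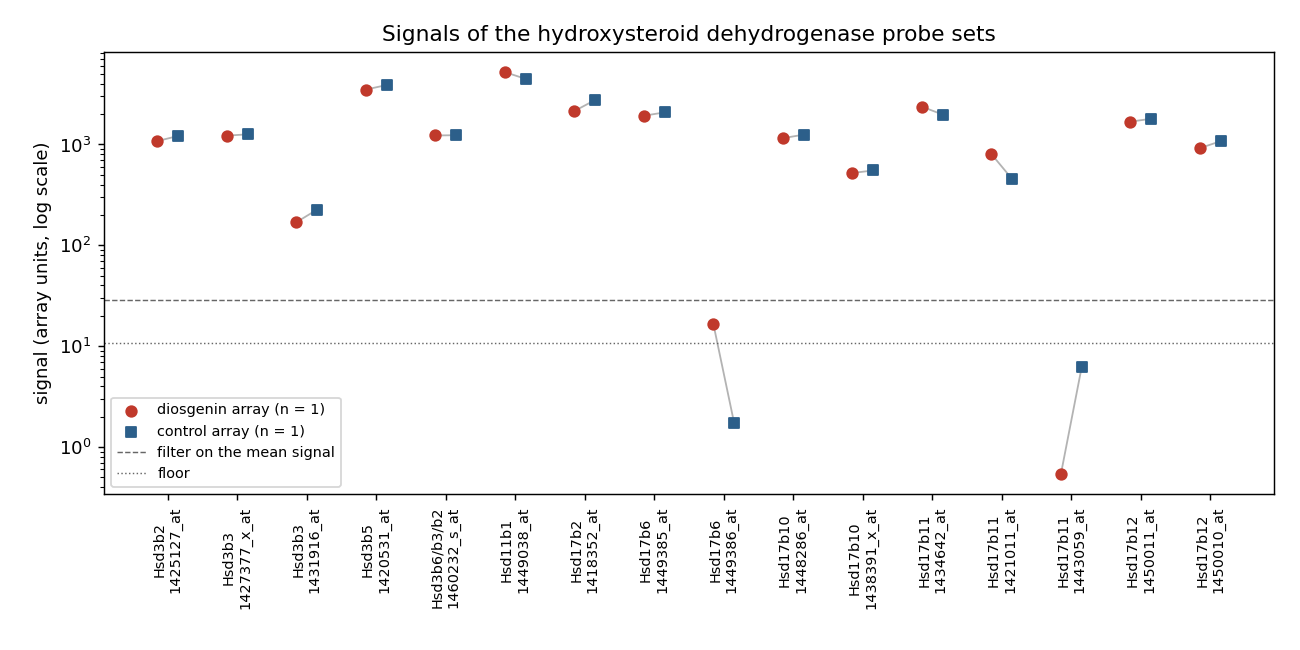
Signal in array units on a log scale for each probe set of the 9 genes and for 1 probe set shared by Hsd3b6, Hsd3b3 and Hsd3b2, with the diosgenin array as circles and the control array as squares (1 array each). Most pairs lie nearly level, Hsd17b11 has the widest gap among probe sets above the filter, and 2 probe sets lie below the filter.

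Among the 3-beta enzymes all 3 genes were lower, with a median log2 ratio of -0.15. Hsd3b5, a male-predominant liver isoform in mice that reduces ketosteroids rather than making hormones, had a signal of 3503 on the diosgenin array and 3886 on the control array. This was 1.11-fold lower, a log2 ratio of -0.15, and 127 of the 863 bright genes, itself included, were as low or lower.

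Hsd3b2, a liver and kidney isoform, had a signal of 1080 on the diosgenin array and 1214 on the control array, 1.12-fold lower. Hsd3b3, another liver and kidney isoform, was read at 1224 on the diosgenin array and 1260 on the control array by its brighter probe set, 1.03-fold lower. Its second probe set gave 169 on the diosgenin array and 226 on the control array, 1.34-fold lower. Both Hsd3b3 probe sets were lower, with log2 ratios of -0.04 and -0.42. The spread of 0.28 describes single probe sets around their gene's mean, so it cannot show whether this gap is unusual. The brighter Hsd3b3 probe set has a name ending in _x_at, the array maker's mark for probes that can cross-hybridise with other transcripts, and so Hsd3b3 is uncertain.

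A further probe set was annotated to Hsd3b6, Hsd3b3 and Hsd3b2 together and stood outside the rule. It read 1228 on the diosgenin array and 1236 on the control array, a log2 ratio of -0.0094. The shared probe set was level, and the probe set named for Hsd3b2 alone was 1.12-fold lower. Near-identical copies in the cluster can contribute to each of these signals, and their shares were not tested. Hsd3b6, a 3-beta isoform, had no other probe set here and therefore no value of its own.

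Hsd11b1, which reduces 11-dehydrocorticosterone to active corticosterone in the endoplasmic reticulum, was 1 of the 2 higher genes. Its single probe set read 5223 on the diosgenin array and 4475 on the control array, 1.17-fold higher with a log2 ratio of 0.22. Of the 863 bright genes, 62 were as high or higher, itself included. Hsd11b2, the opposing enzyme that inactivates glucocorticoid in kidney, read 16.6 on the diosgenin array and 12.6 on the control array, below the filter.

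The 17-beta family went both ways, with 4 genes lower and 1 higher and a median log2 ratio of -0.11. Hsd17b2, which oxidises estradiol and testosterone to their weaker ketones, had the lowest ratio of the 9 genes. Its single probe set read 2144 on the diosgenin array and 2764 on the control array, 1.29-fold lower, and 25 of the 863 bright genes, itself included, were as low or lower. It was the 1 gene of the 9 past the spread between probe sets.

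Hsd17b11, a short-chain dehydrogenase found on lipid droplets, had the highest ratio. Its brightest probe set read 2372 on the diosgenin array and 1979 on the control array, 1.20-fold higher. A second probe set read 803 on the diosgenin array and 453 on the control array, 1.77-fold higher with a log2 ratio of 0.83. Both were higher, and the second was the 1 probe set of the 13 above the filter that was at least 1.5-fold apart, against 7.25% of all 16259 singly named probe sets above the filter. The third probe set was under the floor of 10.7 on both arrays and gives no fold.

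Hsd17b6, which oxidises androstanediols and retinol-like substrates, was read at 1928 on the diosgenin array and 2082 on the control array, 1.08-fold lower. Its other probe set, below the filter, read 16.7 on the diosgenin array and 1.72 on the control array. Set against the floor, that is at least 1.55-fold higher, opposite in direction to the bright probe set. Hsd17b10, a mitochondrial enzyme of isoleucine breakdown and a subunit of mitochondrial RNase P, read 1156 on the diosgenin array and 1252 on the control array, 1.08-fold lower. Its second probe set, also ending in _x_at, was 1.06-fold lower at 522 on the diosgenin array and 553 on the control array.

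Hsd17b12, the ketoacyl reductase of fatty acid elongation, read 1685 on the diosgenin array and 1799 on the control array, 1.07-fold lower. Its second probe set was 1.17-fold lower, at 921 on the diosgenin array and 1079 on the control array. In all 4 genes with several probe sets above the filter, namely Hsd3b3, Hsd17b10, Hsd17b11 and Hsd17b12, the probe sets had the same sign.

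**Figure D2:**
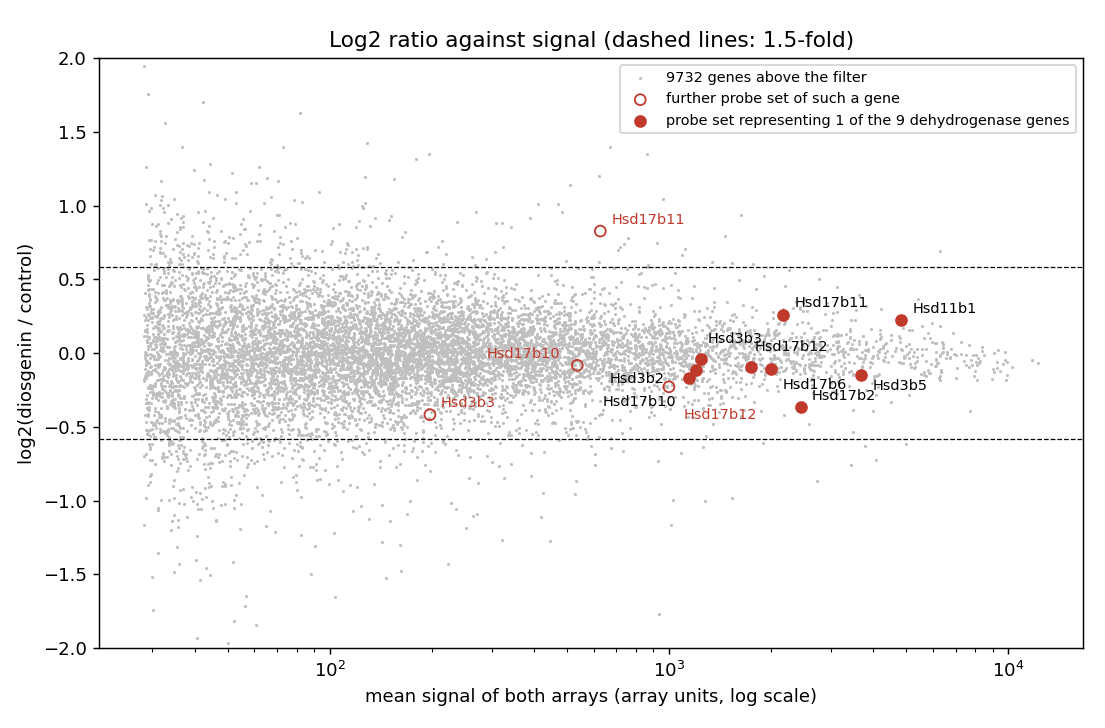
Log2 ratio of the diosgenin over the control array against the mean signal of both arrays on a log scale, for 9732 genes in grey and the 9 dehydrogenase genes in red, with open circles for their further probe sets above the filter. The filled points lie between -0.37 and 0.26, inside the dashed 1.5-fold lines, and 1 open point, of Hsd17b11, lies above them. The 14 genes with a log2 ratio beyond 2 in size are not drawn.

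Hsd17b11 lies directly beside Hsd17b13, another lipid droplet enzyme, on mouse chromosome 5. The brighter Hsd17b13 probe set read 2203 on the diosgenin array and 461 on the control array, 4.78-fold higher, and the dimmer one 127 on the diosgenin array and 222 on the control array, 1.74-fold lower. The probe sets of Hsd17b13 thus disagreed in direction, whereas both Hsd17b11 probe sets above the filter were higher. Which transcripts each reads was not tested.

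Of 19 further genes with hydroxysteroid dehydrogenase activity or name, 10 passed the filter, with 5 higher and 5 lower and a median log2 ratio of 0.00076. Hsd17b13 was the 1 gene of these 10 at least 1.5-fold apart, where 6.44% of all genes were. Rdh16, a retinol and 3-alpha-hydroxysteroid dehydrogenase, read 220 on the diosgenin array and 329 on the control array, a log2 ratio of -0.58. Akr1c14, a 3-alpha-hydroxysteroid dehydrogenase, read 3149 on the diosgenin array and 2624 on the control array, 1.20-fold higher, and Dhrs11 was 1.13-fold higher. Hsd3b1, the adrenal and gonadal 3-beta isoform, and Hsd17b3, the testicular enzyme that makes testosterone, were under the floor on both arrays.

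Steroid reductases had 5 of 8 listed genes above the filter, 3 of them higher and 2 lower, and their median log2 ratio was 0.17. Akr1d1, the 5-beta-reductase of steroids and bile acid precursors, read 984 on the diosgenin array and 676 on the control array, a log2 ratio of 0.54, and its second probe set gave 0.65. Akr1c20, an aldo-keto reductase, read 838 on the diosgenin array and 1339 on the control array, 1.60-fold lower, with 1.54-fold lower by its second probe set. It was the 1 gene of the 5 past 1.5-fold, where 6.44% of all genes were. Srd5a3, a polyprenol reductase, was 1.32-fold higher by its brightest probe set, at dim signals of 95.2 on the diosgenin array and 71.9 on the control array. Its other probe sets above the filter were dimmer and 1.86-fold, 1.13-fold and 1.03-fold higher. Akr1c12 was 1.12-fold higher.

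Cofactor genes had 3 higher and 2 lower of 5 above the filter, with a median log2 ratio of 0.01. At least 1.5-fold apart were 0, where 6.44% of all genes were. H6pd, which supplies the NADPH that Hsd11b1 uses inside the endoplasmic reticulum, read 1431 on the diosgenin array and 1158 on the control array, 1.24-fold higher. Hsd11b1 and H6pd were thus both higher, by log2 ratios of 0.22 and 0.30, the first under and the second just over the spread between probe sets. Idh1, Me1 and Pgd, which make NADPH elsewhere in the cell, had log2 ratios of 0.06, -0.05 and 0.01. The second Me1 probe set gave 0.17 and a dimmer Pgd probe set -0.13, each opposite in sign to the brightest. The directions of Me1 and Pgd thus depend on the probe set.

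Conjugating enzymes had 3 higher and 3 lower of 6 above the filter, with a median log2 ratio of 0.01. At least 1.5-fold apart were 0, where 6.44% of all genes were. The glucuronosyltransferase Ugt2b35 was 1.20-fold higher, Ugt2b38 1.23-fold lower, Ugt2b1 1.05-fold lower and Ugt2b34 1.03-fold higher. Of 8 P450 hydroxylases above the filter, 7 were lower and 1 was higher, with a median of -0.11, against 51.0% lower over all genes. Among 7 hepatocyte markers above the filter, 5 were lower too, with a list median of -0.07. The higher gene was Cyp3a13, at 869 on the diosgenin array and 379 on the control array, 2.30-fold higher. Cyp2b9, Cyp2a12 and Cyp7b1, the oxysterol and steroid 7-alpha-hydroxylase, were 1.19-fold, 1.14-fold and 1.11-fold lower.

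Receptors and carriers of steroids had 4 higher and 2 lower of 6 above the filter, with a median log2 ratio of 0.18. At least 1.5-fold apart were 0, where 6.44% of all genes were. Serpina6, the corticosteroid-binding globulin of plasma, read 1675 on the diosgenin array and 1399 on the control array, 1.20-fold higher. The estrogen receptor Esr1 read 274 on the diosgenin array and 196 on the control array, 1.40-fold higher, with a second, dimmer probe set 2.06-fold higher. With the median of both probe sets Esr1 had a log2 ratio of 0.76, which is past 1.5-fold. Nr1i3, the receptor CAR, was 1.21-fold higher and the mineralocorticoid receptor Nr3c2 1.18-fold lower.

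Of 14 listed glucocorticoid-responsive genes all passed the filter, with 11 higher and 3 lower and a median log2 ratio of 0.17, against 49.0% higher over all genes. At least 1.5-fold apart were 2 of the 14, where 6.44% of all genes were. Per1, a clock repressor, read 85.9 on the diosgenin array and 42.3 on the control array, 2.03-fold higher, and Dusp1, a phosphatase of stress kinases, read 233 on the diosgenin array and 419 on the control array, 1.80-fold lower. The metallothionein Mt1 was 1.47-fold higher by a probe set shared between transcripts, and Igfbp1 was 1.48-fold lower. The listed genes also answer to other signals, such as feeding and the clock, whose part was not tested.

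Male-predominant liver genes, a group to which Hsd3b5 is known to belong but which was listed without it, had 12 lower and 2 higher of 14 above the filter, with a median log2 ratio of -0.12, against 51.0% lower over all genes. Cyp7b1 and Cyp2d9, both lower, are also counted among the P450 hydroxylases, and Ugt2b38, also lower, among the conjugating enzymes. Elovl3, a fatty acid elongase, read 3085 on the diosgenin array and 5092 on the control array, 1.65-fold lower. Moxd1 was 1.63-fold lower at dim signals, Keg1 1.31-fold and Serpina4-ps1 1.30-fold lower. The Hsd3b5 ratio of -0.15 lay near the median of this list. Of 15 female-predominant genes only 3 passed the filter, at a median of -0.25. Rtn4 was 1.19-fold higher by its brighter probe set and 1.02-fold higher by its second. Cux2 was 1.62-fold lower at signals close to the filter, 28.7 on the diosgenin array and 46.4 on the control array. Cyp2b9 was 1.19-fold lower, also at dim signals, 48.3 on the diosgenin array and 57.3 on the control array.

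**Figure D3:**
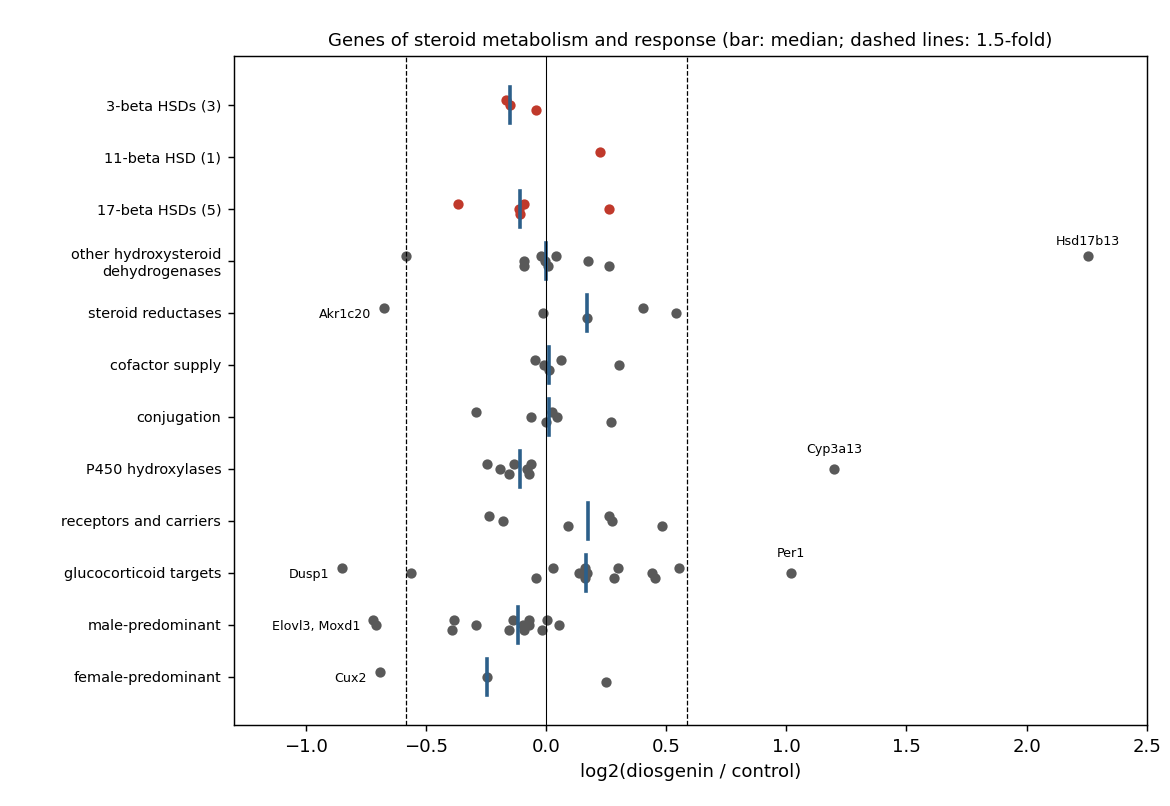
Log2 ratio of the diosgenin over the control array for each gene above the filter, by gene list, with the 9 dehydrogenase genes in red, other genes in grey and a bar at each list's median. Genes past the dashed 1.5-fold lines are named, and the red points all lie between these lines.

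The liver label was checked against markers. Of 9 hepatocyte markers, 7 were read singly, all passed the filter, and their signals summed to 60001 on the diosgenin array and 62734 on the control array. Of these 7, 5 were lower and 2 higher, with a median log2 ratio of -0.07. Of 6 markers of steroid-producing adrenal or gonad, among them Star and Cyp11a1, 0 passed the filter, and their summed signals were 87.8 on the diosgenin array and 74.9 on the control array. Kidney markers also had 0 above the filter, with sums of 47.2 on the diosgenin array and 54.6 on the control array. Endothelial markers were lower in 6 of 6 genes, against 51.0% lower over all genes. Their signals summed to 1146 on the diosgenin array and 1548 on the control array. Kupffer cell markers went both ways, with 4 higher and 2 lower of 6 and a median log2 ratio of 0.09. Their sums were 1504 on the diosgenin array and 1361 on the control array. The Kupffer marker farthest apart was Marco, a scavenger receptor, at dim signals of 45.1 on the diosgenin array and 13.3 on the control array, a log2 ratio of 1.76. Stellate cell markers were higher in 4 of 4 genes above the filter, against 49.0% higher over all genes. The listed marker below the filter, Col1a1, was lower, at 17.2 on the diosgenin array and 31.3 on the control array. Sums over all 5 listed stellate markers were 2059 on the diosgenin array and 1633 on the control array. Of 4 bile duct markers read singly 1 passed, Sox9, 1.61-fold lower, with sums of 58.1 on the diosgenin array and 106 on the control array. The only pancreatic acinar marker above the filter was Cela1, 1.05-fold lower, with list sums of 1194 on the diosgenin array and 1252 on the control array. The part of these cell types in the dehydrogenase ratios was not tested. Signals above the floor made up 60.1% of the diosgenin array and 59.9% of the control array.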

How the data were processed

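The authors deposited 1 linear intensity per probe set and array. The submitters' processing notes name GCOS, the Affymetrix software. The sources used here do not give how signals were summarised or the scaling target. Per the labels' protocols, 5 µg of RNA pooled from 3 mice was labelled with biotin for each array. A mean trimmed by 2% at each end was 96.9 on both arrays, which shows a common scaling. Gene names came from the annotation of the array platform, and all 9 genes matched the RefSeq table of GRCm38.p6, used for names, neighbours and promoter windows.

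Signals under 10.7, the 40th percentile of all signals, were set to that floor, and log2 of diosgenin over control was taken. A gene took its probe set with the highest mean, kept at a mean of 28.4 or more, the 60th percentile. No p-value or interval was computed. Promoter windows were aligned globally with Biopython 1.88. Python 3.11.15 was used, and the procedure was tested on simulated arrays. The 9 genes were all named with every probe set, and from each of 9 other gene lists the 4 genes, or fewer, farthest from a log2 ratio of 0. Hsd11b2, Hsd3b1, Hsd17b3, Sox9, Cela1 and Col1a1 were named after their values were seen. Marco was named by its value too, as the Kupffer marker farthest from a log2 ratio of 0. The genes, the lists and the rules were chosen with earlier results of these data known. The alternatives, 8 in number, changed the floor, the filter, the choice of probe set and the scaling.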

Additional observations from a re-analysis of the deposited data

How the results depend on the processing

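Each of the 8 alternatives gave a ratio for all 9 dehydrogenase genes. Of these 72 ratios 0 changed sign and 0 were at least 1.5-fold apart, and the counts of 7 lower genes and of 0 genes at 1.5-fold stayed. Much of this was fixed in advance. The 9 genes read far above every floor and filter, so those alternatives could not change their ratios. Centring moved each ratio by only 0.0053. Genes with 1 probe set above the filter could not change with the choice of probe set. By more than the spread of 0.28 between probe sets, 2 ratios moved. With the median of a gene's probe sets above the filter, Hsd17b11 had a log2 ratio of 0.54. Without probe sets ending in _x_at, _s_at or _a_at, Hsd3b3 had a log2 ratio of -0.42, read by its dimmer probe set. Both moves follow from which probe set stands for the gene. Among the other named genes, the median of the probe sets gave 0.76 for Esr1, past 1.5-fold where its brighter probe set at 0.48 was not, and 0.73 for Hsd17b13, against 2.26 by its brighter probe set. A floor at the 60th percentile gave 0.67 for Marco, a Kupffer cell marker, against 1.76. The share of all genes at least 1.5-fold apart was 8.89% without the filter and 3.54% when the filter stood at the 75th percentile. No paired analysis was possible because each diet had 1 array. For the same reason no array could be left out.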
